A study of Astyanax mexicanus with 6 samples.

Results

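The regions described here are stretches of the 25 assembled chromosomes of Astyanax mexicanus, the Mexican tetra, that carried a liver ATAC-seq peak in the surface form and none in the Pachon or Tinaja cave forms. They numbered 9698 of 75330 chromosomal union regions (12.9%), or of 110214 union regions when unplaced scaffolds are counted. Among the 50086 chromosomal regions with a Surface peak they made up 19.4% (Wilson 95% interval 19.0 to 19.7, counting error only). They were found by merging overlapping or touching peaks of the 3 deposited peak lists and keeping the merged regions with at least 1 Surface peak and no cave peak. The regions were thus chosen by the presence of a Surface peak and the absence of cave peaks, so their absence from the cave lists is a description and was not tested.

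Liver was profiled in 3 groups that the labels separate only by the kind of fish: Surface, Pachon cave and Tinaja cave. The labels give 2 samples for each form and no age, sex, diet or treatment. One peak list per form was analysed, recorded under replicate 1 of its form. Without a list for each replicate there is no spread between fish, and a difference between forms is a difference between 3 lists.

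ATAC-seq uses the Tn5 transposase, which inserts sequencing adapters where DNA is not wrapped in nucleosomes, so dense insertions mark promoters, enhancers and other accessible elements. Liver enhancers are bound by hepatocyte factors such as those of the HNF4, FOXA and C/EBP families, and their opening accompanies the expression of genes for glucose, lipid and bile acid handling. Cave populations of this species descend from surface-like ancestors and live in darkness with scarce food, and cavefish are known for altered metabolism, including fat accumulation. A region open in the surface liver and closed in both caves would be a candidate loss of accessibility. A missing peak, however, says only that the signal of aligned reads did not pass the caller's threshold, and not why. How well the reads of each form aligned to the reference was not examined. No genome or annotation known to match the build of the lists was at hand. The regions are therefore given by position, with neither sequence nor gene.

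The Surface list held 50924 chromosomal peaks, the Pachon list 50115 and the Tinaja list 58238. The narrowest Surface peak was 212 bp wide, against 221 bp for Pachon and 226 bp for Tinaja. With positions alone in the lists, the read depth of a peak is unknown.

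Surface-only regions were narrow, like those of the other single lists. All 9698 consisted of 1 peak, as did all 5609 Pachon-only and all 11867 Tinaja-only regions. Peaks of 1 list that do not touch are joined only by a peak of another list, so this says nothing of width. Surface-only regions had a median length of 354 bp (95% binomial order-statistic interval 350 to 358). Their lower quartile was 272 bp and their upper quartile 487 bp, and they covered 4.13 Mb in all. The median was 322 bp (interval 318 to 325) for Pachon-only and 338 bp (interval 335 to 341) for Tinaja-only regions. Surface peaks in regions open in all 3 forms had a median width of 652 bp (interval 648 to 656). Surface peaks shared with Tinaja alone had a median of 414 bp (interval 406 to 420), and those shared with Pachon alone 445 bp (interval 436 to 455). Surface-only regions of at least 1000 bp numbered 311 (3.21%), and 21 reached 2000 bp. At the other end, 449 (4.63%) were shorter than the narrowest Pachon peak, and so than any cave peak, and 686 (7.07%) were shorter than the narrowest Tinaja peak. The part of this width limit in the result was not tested.

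The share of Surface peaks that stood alone fell steadily with their width. Of the 3828 Surface peaks under 250 bp, 43.1% lay in Surface-only regions (Wilson 95% interval 41.5 to 44.7). For peaks from 500 to under 750 bp the share was 12.6% (interval 12.0 to 13.2), and for the 1136 peaks of at least 2000 bp it was 1.85% (interval 1.21 to 2.81). The share fell from class to class in the Tinaja list too. In the Pachon list it fell up to 1500 bp, with 1.96% from 1000 to under 1500 bp (interval 1.58 to 2.41) and 2.11% from 1500 to under 2000 bp (interval 1.47 to 3.04). From 400 to under 1000 bp, a Surface peak stood alone more often than a Tinaja peak of equal width, although the Tinaja list as a whole had the higher share of single-list regions (20.8% of its regions, against 19.4% for Surface and 11.5% for Pachon). At 500 to under 750 bp the shares were 12.6% in Surface, 10.9% in Tinaja (interval 10.4 to 11.4) and 4.81% in Pachon (interval 4.45 to 5.20). Under 250 bp the order was the reverse for the longer list, with 54.9% in Tinaja (interval 53.1 to 56.7). At 1000 bp and above, 3.65% of Surface peaks stood alone (interval 3.27 to 4.07), 4.23% of Tinaja peaks (interval 3.81 to 4.70) and 1.81% of Pachon peaks (interval 1.51 to 2.16). A wider peak has more bases at which a peak of another list can meet it, so the rule itself can lower the share with width. Its part in the fall was not tested. These intervals cover counting error only, and no difference between lists was tested.

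**Figure D1:**
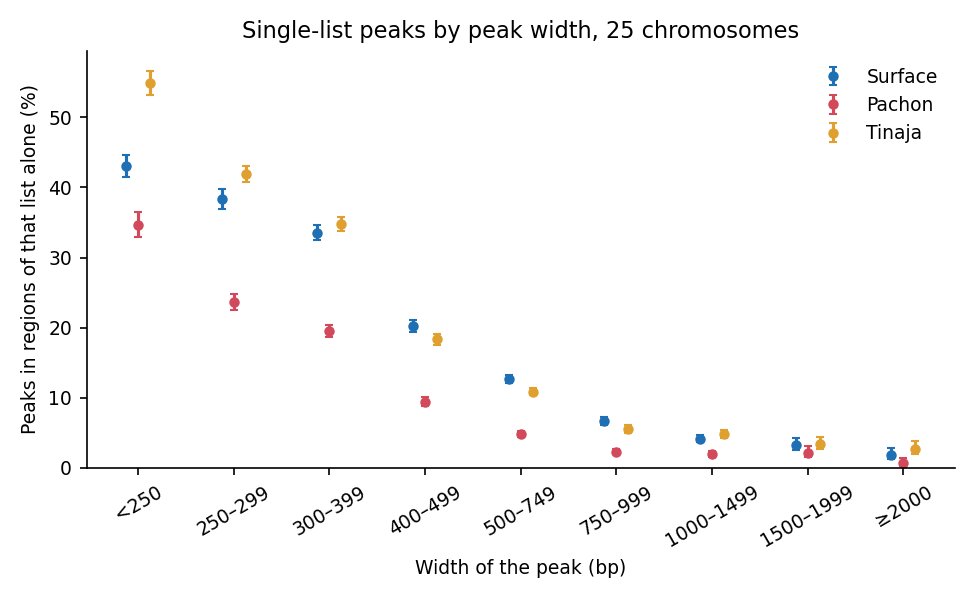
Percentage of the peaks of each list that lie in regions of that list alone, by width of the peak in bp, on the 25 chromosomes; bars are Wilson 95% intervals. The share is highest for the narrowest peaks of each list and lowest for the widest, from 43.1% of Surface peaks under 250 bp to 1.85% of those of at least 2000 bp, and the Pachon value lies below the Surface value in every width class.

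Most Surface-only regions lay a few kilobases from a cave peak. The median distance to the nearest cave peak was 2805 bp (interval 2709 to 2914). A cave peak was within 1000 bp of 2209 regions (22.8%), whereas 1593 (16.4%, Wilson 95% interval 15.7 to 17.2) lay more than 10 kb from any. From Pachon-only regions, the nearest peak of another list was at a median of 3937 bp (interval 3773 to 4156). From Tinaja-only regions it was at 5229 bp (interval 5109 to 5369). Regions open in all 3 forms had a median distance of 3615 bp (interval 3533 to 3687) to the nearest cave peak of another region. That measure leaves out the region's own cave peaks, so it is not a like comparison. For Surface-only regions, the nearest Pachon peak was at a median of 4041 bp and the nearest Tinaja peak at 3400.5 bp. The Tinaja peak was the nearer one for 5745 regions (59.2%) and the Pachon peak for 3711 (38.3%). The Tinaja list is also the longer one, with 58238 chromosomal peaks against 50115 for Pachon, and the part of list length was not tested. The nearest other Surface peak was at a median of 2808 bp (interval 2665 to 2960). Long Surface-only regions lay farther from cave peaks, but under 400 bp the distance did not rise with length. Its median was 2664.5 bp (interval 2405 to 2958) under 250 bp, 2517.5 bp (interval 2320 to 2762) from 250 to under 300 bp and 2569 bp (interval 2413 to 2754) from 300 to under 400 bp. It was 4434 bp (interval 3654 to 5131) from 1000 to under 1500 bp and 4336 bp (interval 3025 to 5653) from 1500 to under 2000 bp. By the rule, a long region is kept only if no cave peak meets it anywhere along its length. The part of the rule in this rise was not tested. The overall median depended on what counted as shared: it was 1171 bp when only a reciprocal overlap of 50% made a site shared, and 4403 bp when peaks within 1000 bp were merged.

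**Figure D2:**
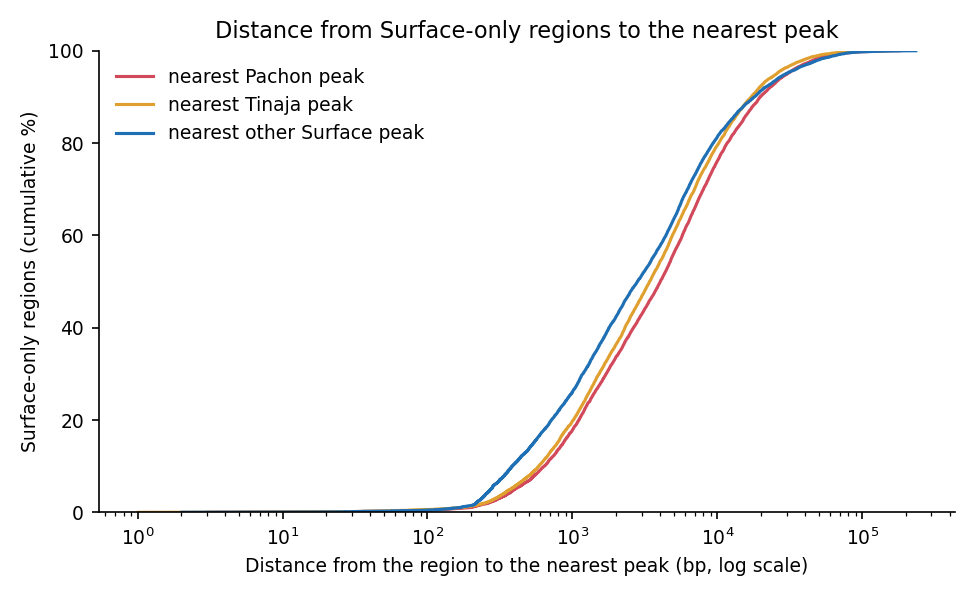
Cumulative percentage of the 9698 Surface-only regions against the distance in bp, on a log axis, to the nearest Pachon peak, Tinaja peak and other Surface peak. The Pachon curve runs to the right of the Tinaja curve, with medians of 4041 and 3400.5 bp.

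Most regions with a cave peak also held a Surface peak, and the nearest cave peak usually lay in such a region. This was so for 6518 of the 9698 (67.2%, Wilson 95% interval 66.3 to 68.1), most often in a region open in all 3 forms (5147, 53.1%). Of all 65632 chromosomal regions with a cave peak, 61.5% held a Surface peak and 32629 were open in all 3 forms. Among the 2209 Surface-only regions within 1000 bp of a cave peak, the share whose nearest cave peak lay in a region with a Surface peak rose to 75.7% (interval 73.9 to 77.5). In 536 of these (24.3%) the nearest cave peak had no Surface peak in its region, so an open site of Surface and one of a cave stood side by side. Among the 1593 regions more than 10 kb from a cave peak, the nearest cave region was without a Surface peak in 41.9% (interval 39.5 to 44.4).

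Few regions sat within 10 bp of the border of the rule, although 932 (9.61%) had a cave peak within 500 bp. In 17 regions a cave peak came within 10 bp without touching, with a median region length of 318 bp. The closest was on chromosome 7 (28177928 to 28178164), with 1 bp between it and a Tinaja peak and 5763 bp to the nearest Pachon peak. A region of chromosome 16 (10151099 to 10151660) was also 1 bp from a Tinaja peak and was 8235 bp from Pachon. A region of chromosome 21 (17104380 to 17104619) lay 2 bp from a Tinaja peak, and another of chromosome 7 (26000067 to 26000287) lay 3 bp from one. On chromosome 12, positions 10387833 to 10388186 lay 3 bp from a Pachon peak and 74 bp from a Tinaja peak. Just outside the rule, 18 regions had Surface and cave peaks that overlapped by at most 10 bp, with a median Surface peak of 348.5 bp. The median largest overlap in all 40388 regions of Surface and a cave was 500 bp.

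The 10 longest Surface-only regions measured 2350 to 4158 bp and lay on 9 chromosomes. The longest (4158 bp) occupied positions 36235231 to 36239388 of chromosome 20. It was followed after 548 bp by a peak at positions 36239937 to 36242711 that had the same start, the same end and the same width of 2775 bp in all 3 lists. Such identity was rare: of 30589 chromosomal regions with exactly 1 peak of each list, 3 had the same start and end in all of them, and this was the one of at least 2000 bp. The middles of 6 other regions lay within 50 kb of the middle of that longest region. Of these, 3 were open in all forms and 3 had cave peaks and no Surface peak. The last peak of chromosome 20 in any list ended at position 36261306, within those 50 kb. The lists do not show how far the chromosome extends beyond it.

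The second (3376 bp), at positions 3808090 to 3811465 of chromosome 3, stood far from other peaks. Its nearest Pachon peak was 43.4 kb away, its nearest Tinaja peak 32.9 kb and its nearest other Surface peak 36.5 kb. On chromosome 15, positions 1918034 to 1920923 (2890 bp) lay 28.3 kb from the nearest Pachon peak, 36.3 kb from Tinaja and 75.5 kb from the next Surface peak. The 3 other regions within 50 kb of it all had cave peaks and no Surface peak, so in that stretch the Surface list and the cave lists shared no site.

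Chromosome 1 held 2 of the 10. Positions 4818484 to 4821073 (2590 bp) and 4899271 to 4902068 (2798 bp) were 78.2 kb apart, and 6 regions lay between them, of which 1 was Surface only, 2 were open in all 3 forms, 2 in both caves only and 1 in Surface and Pachon. The first was 31.0 kb from the nearest peak of each cave. The second was 5.39 kb from a Pachon peak and 12.5 kb from a Tinaja peak.

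The other 5 were 1.44 to 8.08 kb from the nearest cave peak. Positions 777686 to 780700 of chromosome 5 (3015 bp) stood between 2 regions open in all forms, with 8 such regions within 50 kb. Positions 3502221 to 3505184 of chromosome 12 (2964 bp) had another Surface-only region 550 bp away and no cave peak within 6.11 kb. Positions 22459481 to 22462089 of chromosome 14 (2609 bp) were 1.44 kb from a peak of each list. Positions 13832174 to 13834600 of chromosome 9 (2427 bp) were 1.30 kb from another Surface peak and 6.01 kb from the nearest cave peak, with 2 regions open in all forms and 3 without a Surface peak among the 7 within 50 kb. Positions 20372816 to 20375165 of chromosome 17 (2350 bp) were 8.08 kb from a Pachon peak and 12.8 kb from a Tinaja peak. Among the 10, the nearest other Surface peak was closer than the nearest cave peak in 5. The margin was small on chromosome 14 (1438 against 1440 bp), on chromosome 5 (3949 against 4009 bp) and at 4818484 of chromosome 1 (30070 against 30998 bp). Of the 10, 5 were adjacent to another Surface-only region.

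The 5 regions farthest from any cave peak were 228 to 747 bp long, the farthest being the longest of them. On chromosome 14, positions 32980502 to 32981248 (747 bp) lay 102 kb from the nearest Tinaja peak, 140 kb from Pachon and 165 kb from any other Surface peak, with no other region within 50 kb. On chromosome 16, positions 27633132 to 27633401 (270 bp) were 92.2 kb from the nearest cave peak. On chromosome 14, positions 15436023 to 15436250 (228 bp) were 88.2 kb from one. The remaining 2 of the 5 were neighbours on chromosome 9, at positions 16169243 to 16169485 and 16170321 to 16170673, 835 bp apart and 87.2 and 88.3 kb from the nearest cave peak.

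Surface-only regions were neighbours of each other more often than their share of all regions. Each has a neighbour on either side except at chromosome ends, which gives 19388 neighbour places, and a region that adjoins 2 of them fills 2 places. Of these places, 3432 (17.7%) held a Surface-only region, against 12.9% of all regions, a ratio of 1.37. The same measure was 1.52 for Pachon-only regions (11.3% of neighbours, against 7.45%) and 1.54 for Tinaja-only regions (24.2%, against 15.8%). For regions of both caves only it was 1.51, for Surface and Pachon only 1.44, for Surface and Tinaja only 1.26 and for all 3 forms 1.14. Neighbours of the same class were thus above their share in every class, not only in those of single lists. Cave-only classes were rarer beside Surface-only regions than in the whole set, with ratios of 0.858 for Pachon only, 0.828 for Tinaja only and 0.822 for both caves only. They were also rarer beside regions open in all 3 forms (0.845, 0.777 and 0.828) and beside Surface and Tinaja only (0.821, 0.891 and 0.823). Beside Surface and Pachon only the ratios were 1.00, 0.905 and 0.869. Beside Tinaja-only regions, by contrast, Pachon-only regions had a ratio of 1.22 and regions of both caves 1.28. Regions open in all 3 forms were as frequent beside Surface-only regions (43.4%) as in the whole set (43.3%), whereas they were rarer beside Tinaja-only regions (33.7%) and Pachon-only regions (36.6%). They made up 43.5% beside Surface and Pachon only, 46.1% beside Surface and Tinaja only and 35.9% beside both caves only. The level beside Surface-only regions was thus not particular to them. These ratios describe the lists and were not tested.

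**Figure D3:**
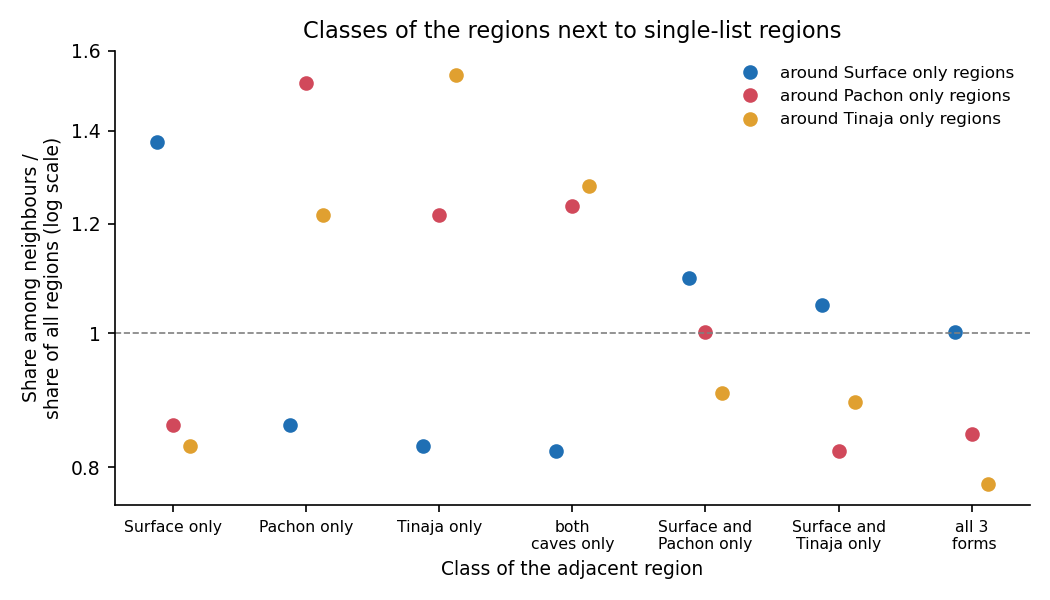
Share of each class among the regions adjacent to Surface-only, Pachon-only and Tinaja-only regions, divided by the share of that class among all chromosomal regions, on a log axis. Around Surface-only regions the ratio is 1.37 for Surface only and between 0.822 and 0.858 for the 3 classes without a Surface peak.

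Most Surface-only regions stood singly. Of all 9698, 6652 (68.6%) had regions of another class on both sides, 2060 (21.2%) formed pairs and 696 (7.18%) formed runs of 3. Runs of 4 numbered 52, runs of 5 numbered 14 and runs of 6 numbered 2. The 16 runs of at least 5 lay on 13 chromosomes, held 82 regions of 219 to 1163 bp, and spanned 5.07 to 89.6 kb (median 31.7 kb). The stretch between the flanking regions with a cave peak measured 28.0 to 181 kb.

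Both runs of 6 were on chromosome 15. The first spanned positions 11821017 to 11854310 (33.3 kb), with regions of 606, 417, 297, 586, 599 and 371 bp, inside 51.6 kb between the flanking regions with a cave peak. The right flank was open in all 3 forms and was followed by 3 more Surface-only regions within 50 kb of the middle of the run. The second spanned positions 29604481 to 29624734 (20.3 kb), with regions of 843, 1146, 421, 577, 453 and 450 bp, inside 30.2 kb. Among the runs of 5, the widest stretch between flanking cave regions, 181 kb, held the run at positions 16085745 to 16170673 of chromosome 9, which includes both neighbours named above. The run at positions 1034010 to 1066760 of chromosome 1 lay in a stretch of 123 kb with a region open in all 3 forms on each side. The most compact run, 5 regions within 5.07 kb at positions 39695141 to 39700209 of chromosome 5, had Tinaja-only regions on both sides, 29.4 and 56.0 kb away.

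**Figure D4:**
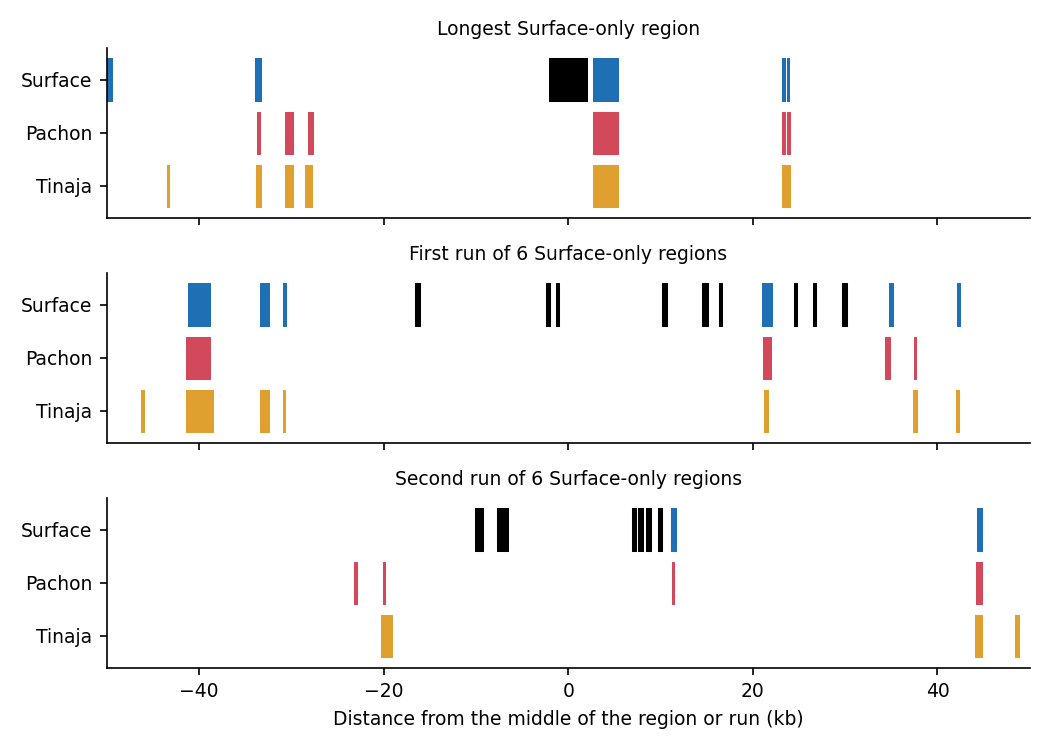
Peaks of each list within 50 kb of the middle of the longest Surface-only region and of both runs of 6, against distance in kb; black bars are Surface-only regions and coloured bars all other peaks. In the upper panel the black bar stands 548 bp from a peak of 2775 bp that has the same ends in all 3 lists, and in the lower panels the rows of both caves are empty below the 6 black bars of each run.

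The share of Surface-only regions was similar on all chromosomes. It ran from 17.6% of the regions with a Surface peak on chromosome 3 (740 of 4204, Wilson 95% interval 16.5 to 18.8) to 21.2% on chromosome 17 (333 of 1569, interval 19.3 to 23.3). On 22 of 25 chromosomes the interval included the share over all of them. It lay below that share on chromosomes 3 and 23 and above it on chromosome 14 (21.1%, interval 19.5 to 22.8). Density ranged from 7.30 Surface-only regions per Mb on chromosome 21 to 12.7 per Mb on chromosome 14, taking the last peak as the chromosome's end. Chromosome 21 also had the fewest regions of any kind, 60.0 per Mb. The median length per chromosome stayed between 336 and 367.5 bp. The longest Surface-only region of a chromosome ranged from 1208 bp, on chromosome 23 at positions 16678855 to 16680062, to the 4158 bp region of chromosome 20, with a median of 2005 bp. Cut into 10 equal stretches, the chromosomes had shares between 18.8% and 20.5% along their length, and the first and last stretches had 19.5% and 19.1%.

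**Figure D5:**
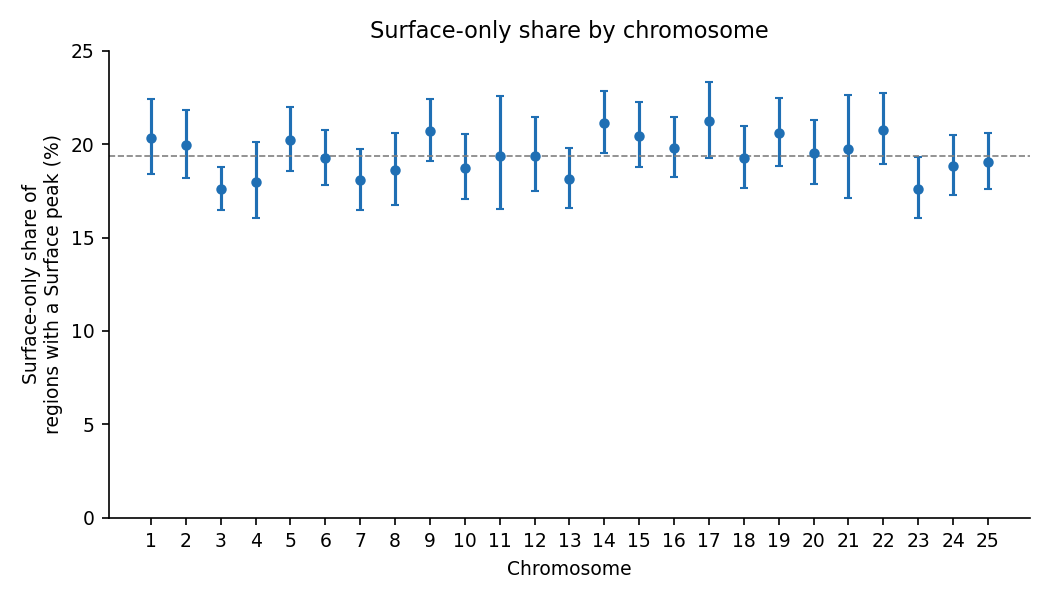
Surface-only regions as a percentage of the regions with a Surface peak on each chromosome; bars are Wilson 95% intervals and the dashed line is the share over all 25 chromosomes, 19.4%. Values lie between 17.6% and 21.2%, and the intervals of chromosomes 3, 14 and 23 do not reach the line.

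Counts in windows of 1 Mb ranged more widely than the densities per Mb of whole chromosomes. The part of counting error and of the number of regions per window in that range was not tested. Over 944 windows of 1 Mb the median was 10 Surface-only regions, with quartiles of 6 and 13, and 6 windows had none. The highest count was 32, in the window of chromosome 15 from 11000001 to 12000000, where 101 regions had a Surface peak (31.7%, interval 23.4 to 41.3) and which holds the first run of 6. It also had 6 Pachon-only and 11 Tinaja-only regions. A window on chromosome 22 from 24000001 to 25000000 had 30 of 93 (32.3%, interval 23.6 to 42.3). On chromosome 14 from 20000001 to 21000000 there were 29 of 111 (26.1%, interval 18.9 to 35.0), and that window also had 22 regions of both caves only. A window on chromosome 16 from 31000001 to 32000000 had 26 of 109 (23.9%, interval 16.8 to 32.7). One on chromosome 17 from 26000001 to 27000000 had 26 of 74 (35.1%, interval 25.2 to 46.5). The intervals of the windows on chromosomes 14 and 16 include the 19.4% over all chromosomes. These windows were picked for their counts, so their shares are descriptions.

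Between the sparsest and the most crowded surroundings, in numbers of cave peaks, the Surface-only share differed in opposite directions for narrow and wide Surface peaks. Regions with a Surface peak were split into 4 groups, at the quartiles of the number of other regions with a cave peak within 50 kb. Overall the share was 21.0% in the sparsest group (0 to 6 such regions, interval 20.4 to 21.7), 18.5% with 7 to 9 (interval 17.8 to 19.1), 18.0% with 10 to 12 (interval 17.3 to 18.7) and 19.9% in the densest (13 to 28, interval 19.2 to 20.7). It was thus lower in both middle groups than at either end. Where the widest Surface peak was under 300 bp, 39.8% of regions were Surface only in the sparsest group (interval 37.9 to 41.7) and 46.5% in the densest (interval 44.1 to 48.9). Where it was at least 1000 bp, the shares were 5.75% (134 of 2330, interval 4.88 to 6.77) and 3.09% (53 of 1716, interval 2.37 to 4.02). From 500 to under 1000 bp they were 13.6% and 9.73%. From 300 to under 500 bp they were 26.8% (interval 25.4 to 28.1) and 29.1% (interval 27.5 to 30.7), and these intervals overlap. Between these end groups, Surface peaks of at least 500 bp stood alone more often where cave peaks were sparse. Those under 300 bp did so more often where cave peaks were dense. Both the share and the split rest on where cave peaks lie, so they are not independent. A wide Surface peak also has more bases at which a cave peak can meet it. How far these differences follow from the rule was not tested. The split was chosen after the data were seen, and no test was made.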

How the data were processed

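Liver ATAC-seq peaks of 3 forms were analysed, 1 deposited list per form. Per the submitters' processing notes, bcl2fastq 2.20, Bowtie2, SAMtools and MACS2 were used. Settings, build, Tn5 shift, duplicate handling, peak threshold and pooling of replicates were not given in the sources used here. All values are other than counts or signal: the deposited columns are start and end positions, and the deposited score is 0 for every peak, so no peak could be ranked by strength and no count was available. Wider or deeper calling adds peaks, so the absence of a peak depends on it.

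Peaks that overlapped or touched were merged, and each merged region was classed by which lists had peaks there. Distances are bases between the nearest ends. Counts of regions within 50 kb can leave out a region with only its near end inside that limit. Positions are 1-based. Shares carry Wilson 95% intervals and medians binomial order-statistic intervals. Both cover counting error only, and neighbouring regions are not independent. With 1 list per form no test between forms was possible. The gene table at hand is of AstMex3, and it was not used because the build of the lists was not given. On 4 of 25 chromosomes peaks lay beyond its last gene, which alone cannot settle whether the builds differ.

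By rule, the text names the 10 longest regions, the 5 farthest from and 5 nearest to a cave peak, the 5 fullest windows of 1 Mb, and the extremes of the longest region per chromosome. Runs of at least 5 are summarised. Both runs of 6 are named, but only some runs of 5, picked for their extent or flanks. Regions and rules were chosen with earlier results of these data known. Python 3.11.15, numpy 2.4.6, pandas 2.3.3, scipy 1.17.1 and matplotlib 3.10.9 were used. Merging was tested on simulated data and against bedtools 2.31.1.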

Additional observations from a re-analysis of the deposited data

Results flagged for a closer look

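Outside the chromosomes, unplaced scaffolds held 4628 further Surface-only regions, a signal in data that the comparisons above do not use. They were 21.1% of the 21913 scaffold regions with a Surface peak (Wilson 95% interval 20.6 to 21.7), against 19.4% on chromosomes. This difference was not tested.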

How the results depend on the processing

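The number of Surface-only regions stayed within 1.5 times of 9698 under all 7 alternatives, between 6937 with peaks within 1000 bp merged and 14326 with scaffolds included. Their share of regions with a Surface peak moved from 19.4% to 28.3% under 50% reciprocal overlap, 18.9% after merging within 200 bp, 15.7% within 1000 bp, 20.4% with 500 bp around each midpoint, 21.3% with equal numbers of widest peaks and 19.9% with scaffolds. The median length moved to 384, 367, 500 and 359 bp under reciprocal overlap, merging within 1000 bp, midpoints (by construction) and equal numbers. It moved to 434 bp with peaks of at least 300 bp, which leaves out shorter regions by construction. The median distance to a cave peak moved to 1171 bp under reciprocal overlap, where it can be 0, to 2936 and 4403 bp under merging within 200 and 1000 bp, which removes the nearest regions by construction, to 2484 bp with midpoints, 3395 bp with peaks of at least 300 bp and 3030 bp with equal numbers. The cause of the other shifts was not tested. Of the 9698 regions, 4805 (49.5%) stayed Surface only under all 6 alternatives on chromosomes, with a median length of 437 bp. Of the 10 longest, 9 did; that of chromosome 20 was lost when peaks within 1000 bp were merged. By construction, keeping peaks of at least 300 bp removed the 3350 regions under 300 bp and retained the other 6348. This also raises the median length of the regions that stayed. Reciprocal overlap could remove none, also by construction, and kept all 9698. No paired analysis was possible because each form has 1 list and no test was made, and no replicate could be left out for the same reason.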
